A study of Mus musculus with 6 samples.

Results

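Long open domains were chosen by peak length alone. In each of 6 Omni-ATAC-Seq libraries of postnatal day 1 (P1) mouse heart nuclei, peaks of 1500 bp or more were taken, and those that touched or overlapped between libraries were joined. This gave 596 domains, set against 169872 regions when all peaks are joined in the same way. They rest on 1275 long peaks among 587191 peaks, or 0.217%. Since length selected them, the lengths, heights and counts of long peaks are given as a description with no test. At the threshold, the shortest peaks taken measured 1500 to 1506 bp and the longest peaks not taken were 1 to 5 bp under the limit (3 on each side in every library), so the limit cuts through a continuous range of lengths.

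In ATAC-Seq, a transposase inserts sequencing adapters where DNA is accessible, and a peak is a stretch where inserts exceed the local background. The Input group held nuclei of wildtype hearts taken straight from a 2.2 M sucrose cushion. The Myc group held cushion nuclei of Nkx2-5 Cre/+; R26RSun1-Myc-Egfp/+ hearts, pulled down with a Myc antibody by magnet-assisted nuclei immunoprecipitation (MAN-IP), and the PCM1 group held nuclei of hearts labelled WT after MAN-IP with an antibody to PCM1, a centriolar satellite protein that coats the nuclear envelope of cardiomyocytes. Each group had 2 libraries from independent biological replicates, and 50000 nuclei went into each library. Cre driven by Nkx2-5, an early cardiac transcription factor, switches the nuclear envelope tag on for good, so the tag marks cells that express the driver and their descendants, among them those whose nuclei passed the cushion, which the study used to collect chiefly cardiomyocyte nuclei. The Myc mice also differ from the others in carrying Cre at Nkx2-5 and the tag at Rosa26, so genotype and antibody cannot be told apart there.

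Most accessible sites are a few nucleosomes wide. A long unbroken peak usually forms where many neighbouring sites are open at once, as at promoters in CpG islands, stretches that stay unmethylated and keep many CG pairs and often carry GGGCGG, the letters bound by Sp1-type factors. Long stretches can also open around strongly transcribed genes, where polymerase runs past the end of the gene before it is released. In a peak list, a domain is long only if its accessible parts stay joined above the caller's threshold, so the same place can appear as 1 long peak in a deep library and as several short ones in a shallow library.

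The sequences below show the 2 kinds of domain met here. The first 3 are the 300 bases before the TSS, or around the summit, of CG-rich domains that were long in all 6 libraries. Elf2, an ETS-family transcription factor (chr3:51340664-51340963, minus strand, 39 CG pairs), and Luc7l2, a splicing factor (chr6:38551034-38551333, plus strand, 23 CG pairs), are at promoters, while the Lncppara sequence (chr15:85671040-85671339, plus strand, 42 CG pairs) lies inside the long noncoding gene of that name, far from any protein-coding TSS. The other 3 are the 300 bases around the strongest summit of domains beside genes of the contractile apparatus, namely after the end of Tnnt2 (chr1:135856096-135856395, 4 CG pairs), after the end of Myh6 (chr14:54939375-54939674, 4 CG pairs) and inside Myl2 (chr5:122109652-122109951, 7 CG pairs), all on the plus strand. All are RefSeq GRCm38.p6 sequence outside annotated exons, written 5′ to 3′ with CG pairs in capitals.
Elf2 promoter: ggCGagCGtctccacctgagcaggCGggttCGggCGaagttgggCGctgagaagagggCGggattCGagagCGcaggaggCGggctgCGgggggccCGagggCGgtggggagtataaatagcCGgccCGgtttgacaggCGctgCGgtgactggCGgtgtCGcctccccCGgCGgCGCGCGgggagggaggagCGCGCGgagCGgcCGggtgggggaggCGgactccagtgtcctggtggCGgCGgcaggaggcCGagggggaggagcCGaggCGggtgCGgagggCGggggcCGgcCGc
Luc7l2 promoter: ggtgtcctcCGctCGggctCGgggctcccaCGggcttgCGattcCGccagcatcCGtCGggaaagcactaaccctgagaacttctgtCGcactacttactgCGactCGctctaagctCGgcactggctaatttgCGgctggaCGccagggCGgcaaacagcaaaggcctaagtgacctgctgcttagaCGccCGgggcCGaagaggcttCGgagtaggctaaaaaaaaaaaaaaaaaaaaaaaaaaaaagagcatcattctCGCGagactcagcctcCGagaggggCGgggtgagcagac
Lncppara, inside the gene: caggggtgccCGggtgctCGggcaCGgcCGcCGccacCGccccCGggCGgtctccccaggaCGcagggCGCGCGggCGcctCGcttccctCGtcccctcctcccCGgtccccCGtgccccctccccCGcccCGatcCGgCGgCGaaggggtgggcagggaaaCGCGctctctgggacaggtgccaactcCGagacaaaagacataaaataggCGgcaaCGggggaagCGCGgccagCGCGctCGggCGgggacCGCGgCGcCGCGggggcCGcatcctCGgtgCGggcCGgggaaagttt
Tnnt2, after the gene end: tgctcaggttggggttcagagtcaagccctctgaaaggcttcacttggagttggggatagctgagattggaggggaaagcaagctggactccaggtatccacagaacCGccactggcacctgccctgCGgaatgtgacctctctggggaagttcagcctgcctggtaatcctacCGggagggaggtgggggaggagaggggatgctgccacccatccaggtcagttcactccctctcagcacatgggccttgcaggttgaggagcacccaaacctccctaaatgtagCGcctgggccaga
Myh6, after the gene end: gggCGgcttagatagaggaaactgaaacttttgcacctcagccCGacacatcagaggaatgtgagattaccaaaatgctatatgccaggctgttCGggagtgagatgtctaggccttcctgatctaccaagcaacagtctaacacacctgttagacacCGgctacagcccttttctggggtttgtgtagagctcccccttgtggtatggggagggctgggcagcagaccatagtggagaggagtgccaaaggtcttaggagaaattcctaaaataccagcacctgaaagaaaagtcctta
Myl2, inside the gene: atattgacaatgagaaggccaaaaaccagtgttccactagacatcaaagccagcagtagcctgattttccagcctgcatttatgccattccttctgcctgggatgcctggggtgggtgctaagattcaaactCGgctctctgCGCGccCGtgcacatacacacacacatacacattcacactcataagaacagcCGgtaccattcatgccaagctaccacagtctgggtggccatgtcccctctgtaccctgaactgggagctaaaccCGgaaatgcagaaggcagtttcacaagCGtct

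The number of long peaks was 422 in Input 1, 48 in Input 2, 282 in Myc 1, 242 in Myc 2, 153 in PCM1 1 and 128 in PCM1 2. Input 1 and Input 2 thus held the most and the fewest, and the Myc and PCM1 groups did not overlap. Per 1000 peaks the values were 3.21, 0.637, 2.63, 2.23, 1.84 and 1.57 in the same order of libraries. The background pileup, the mean number of fragments over a base that the caller used, stood at 3.957 in Input 1, 1.024 in Input 2, 1.441 and 1.436 in the Myc libraries and 0.977 and 0.903 in the PCM1 libraries. Input 1 was 4.38 times as deep as PCM1 2, the shallowest, whereas Input 2 had fewer long peaks than either PCM1 library at a slightly greater depth. How far depth set the length of peaks was not tested. Input 1 alone gave 146 of the 596 domains, and 450 domains remained without it.

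**Figure D1:**
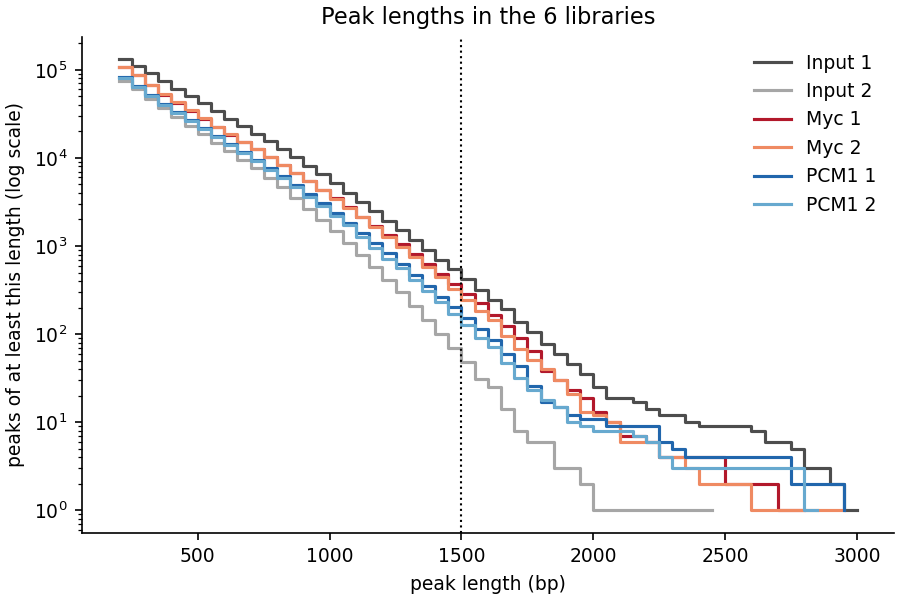
Number of peaks (log scale) of at least the length on the horizontal axis (bp) in each of the 6 libraries, with the limit of 1500 bp dotted. The lines fall steadily through the limit, and Input 1 has 25 peaks of 2000 bp or more while Input 2 has 1.

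The domains had a median length of 1648 bp and ran from 1500 to 3061 bp, with 39 of 2000 bp or more. Of the 596, 272 held a long peak in 1 library only, 138 in 2, 86 in 3, 49 in 4, 33 in 5 and 18 in all 6. Input 2 set the last count, since 40 domains were long in all of the other 5 libraries. Nearly all were accessible everywhere, since 591 held a peak of some length in every library. The matching share over all 169872 regions is not given, so this is not read as particular to long domains. Where a library lacked a long peak, shorter ones nearly always lay there. In PCM1 2, for example, 204 domains were covered by 1 shorter peak, 262 by several, and 2 by none, and the median share of a domain under peaks was 80.2%. In Input 1 the median share was 98.3%, and in Input 2 it was 72.5%. Within a group, 44 domains were long in both Input libraries, which was 10.4% of those long in Input 1 and 91.7% of those long in Input 2. The Myc libraries shared 156, or 55.3% and 64.5% of their own, and the PCM1 libraries 75, or 49.0% and 58.6%.

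Most domains lay over promoters. A transcription start site (TSS) of a protein-coding gene in GENCODE M21 was inside 490 of the 596 (82.2%), and of the rest 24 lay at or within 5 kb after the end of a gene, 59 inside a gene and 23 between genes. Of the 490, 434 covered the TSSs of 1 gene, 53 of 2 genes and 3 of more. Some of the domains away from coding TSSs were still start sites, because 16 of the 106 covered the TSS of a transcript not classed as coding, such as one of Zswim6. Of the 596, 68 were over 10 kb from any protein-coding TSS.

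The longest domains were distributed differently. Of the 10 longest, 2553 to 3061 bp, only 3 covered a protein-coding TSS, and those were Ppp2r3d, a regulatory subunit of protein phosphatase 2A, Nsd1, a histone H3 lysine methyltransferase, and the shared promoter of Zbtb25 and Zbtb1, zinc finger factors. Of the 39 domains of 2000 bp or more, 28 were over a TSS and 8 were at gene ends, which hold 24 of all 596. These counts describe domains that length selected.

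**Figure D2:**
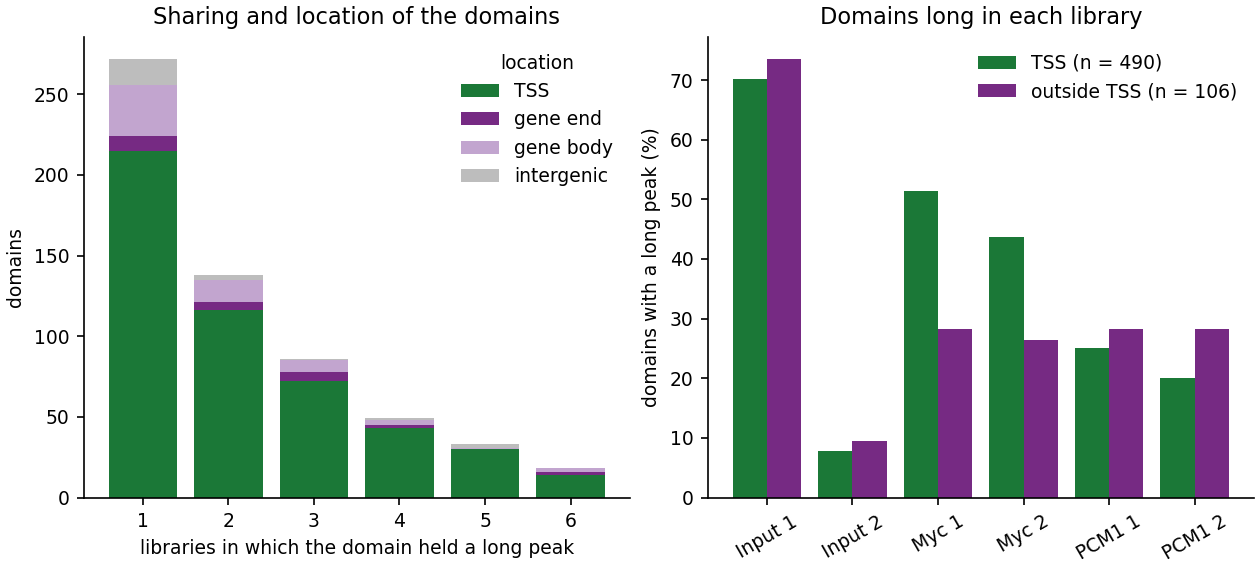
Left, number of domains by how many of the 6 libraries held a long peak there, coloured by location. Right, percentage of the 490 domains over a TSS (green) and of the 106 outside (purple) that were long in each library, where Myc 1 and Myc 2 lie at 51.4% and 43.7% for TSS domains but at 28.3% and 26.4% outside.

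Compared with shorter peaks of the same library, long peaks more often had their summit within 1 kb of a protein-coding TSS. The share was 79.9% in Input 1, 75% in Input 2, 87.6% and 87.2% in the Myc libraries and 77.8% and 75% in the PCM1 libraries, against 12.3% to 19.6% of the shorter peaks. The Myc libraries stood above the other 4, and no library overlapped the shorter peaks. The difference was 64.2 ± 7.89 percentage points (mean ± SD over libraries, n = 6), positive in 6 of 6, with an exact two-sided sign-flip permutation p = 0.0312, the smallest that 6 libraries allow, and 0.0312 after Benjamini-Hochberg adjustment over 4 tests. The test treats the 6 libraries as independent, although Input and MAN-IP libraries may come from the same preparations of nuclei. The contrast did not mark the limit of 1500 bp. Against peaks from 1000 bp up to the limit the difference was -0.881 points (exact p = 0.812, positive in 3 of 6). Against equally many of the strongest shorter peaks it was -9.14 points, lower in 6 of 6 libraries (exact p = 0.0312), so promoter summits were less frequent among long peaks than among the strongest short ones. With 2000 bp as the limit, the mean share fell to 51.1% and the difference to 34.7 points (exact p = 0.0938).

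The DNA under the long peaks was rich in G and C. In the 300 bases around the summit, mean GC content was 66.97% in Input 1, 67.2% in Input 2, 69.0% and 69.1% in the Myc libraries and 67.2% and 66.8% in the PCM1 libraries, against 51.2% to 53.2% in shorter peaks. The difference was 15.6 ± 1.91 points (n = 6, positive in 6 of 6, exact p = 0.0312, adjusted p = 0.0312). The ratio of observed to expected CG pairs was 0.784, 0.842, 0.854, 0.857, 0.773 and 0.750 in the same order, against 0.296 to 0.347, a difference of 0.487 ± 0.0496 (n = 6, positive in 6 of 6, exact p = 0.0312, adjusted p = 0.0312). This is the composition of CpG islands, which escape the methylation that erodes CG pairs elsewhere. Peaks from 1000 bp up to the limit came close to it, at 66.4% GC (difference 1.28 points, exact p = 0.125) and a ratio of 0.779 (difference 0.0314, exact p = 0.188). The strongest shorter peaks had a GC content 4.72 points and a ratio 0.0403 below the long peaks, in 6 of 6 libraries each (exact p = 0.0312).

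**Figure D3:**
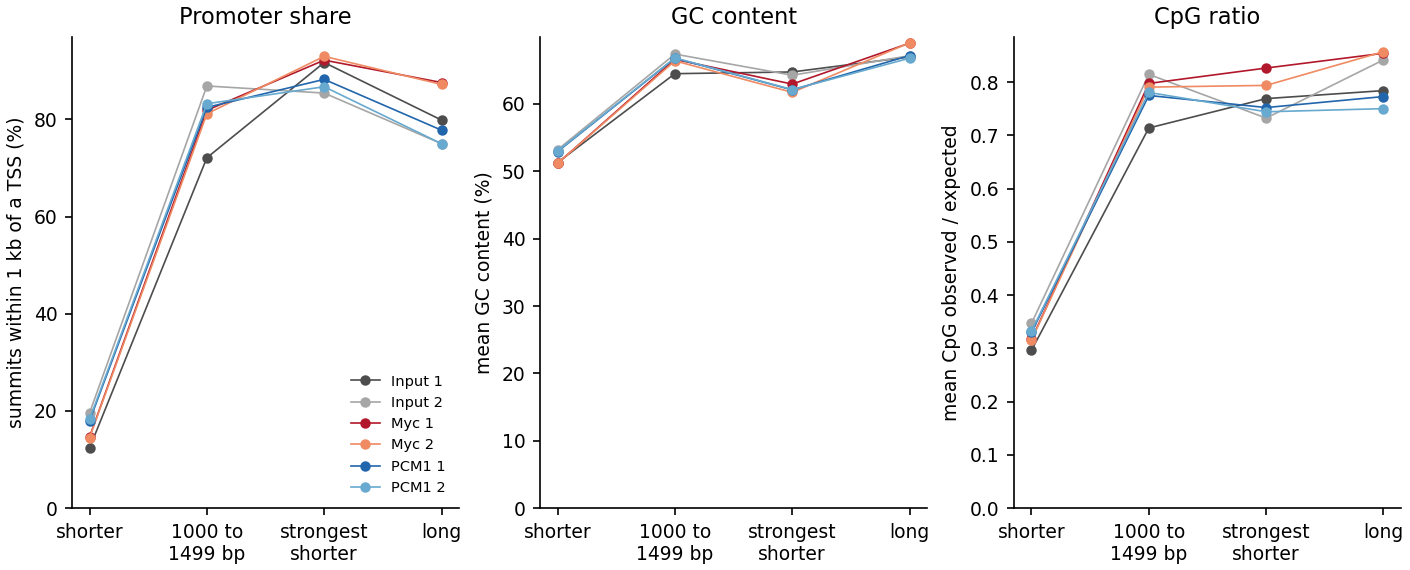
Share of summits within 1 kb of a TSS (%), mean GC content (%) and mean CG observed to expected ratio in each library for all shorter peaks, peaks from 1000 bp up to the limit, the strongest shorter peaks and long peaks. The rise is between all shorter peaks and the other 3 sets, with long peaks at 75% to 87.6% in the left panel and the strongest shorter peaks at 85.4% to 93.0%.

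Composition separated the domains by location. The median CG ratio of the whole domain was 0.827 for the 490 domains over a TSS, and 457 of them (93.3%) exceeded 0.6. It was 0.246 for the 24 at gene ends, 0.329 for the 59 inside genes and 0.406 for the 23 between genes, where 33.3%, 33.9% and 30.4% exceeded 0.6. Median GC content was 67.6% over TSSs and between 54.2% and 54.6% in the other 3 classes. The median share of exon was 32.9% for TSS domains and 0% for domains inside genes.

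Short sequences recognised by transcription factors were counted on both strands of the 300-base summit windows, and a match is only a description of the letters. GGGCGG, the Sp1-type letters, occurred in 71.9% to 83.9% of long peaks per library and in 15.7% to 21.6% of shorter peaks, beside 47.8% of 20150 promoters of 300 bases in RefSeq. Among the domains, 400 of the 490 over a TSS held it at their strongest summit and 9 of the 24 at gene ends. CACGTG, the E-box of USF and MYC-type factors, occurred in 9.15% to 12.5% of long and 6.02% to 6.66% of shorter peaks, beside 8.03% of promoters. Letters of factors that act at distal sites went the other way. GGAATG, bound by TEAD factors, was in 9.57% to 11.7% of long against 19.7% to 20.6% of shorter peaks, AGATAA of GATA factors in 0% to 3.55% against 15.2% to 16.8%, and TGACTCA of AP-1 in 0% to 2.61% against 7.79% to 8.64%. The shares of 0% are 0 of 48 long peaks in Input 2, which allows up to 6.25% by counting error alone. Promoters held these 3 at 13.4%, 9.45% and 4.65%. CCAAT, bound by NF-Y, did not separate the peaks, at 27.0% to 34.4% of long and 30.7% to 32.2% of shorter ones. None of these shares was tested, and the 2 sets differ in base composition as given above.

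Long peaks over a TSS reached about equally far to both sides. The share of their length that lay downstream, in the direction of transcription, was 55.2% in Input 1, 54.0% in Input 2, 55.0% and 54.2% in the Myc libraries and 53.1% and 52.0% in the PCM1 libraries, against 50.7% to 53.3% for shorter peaks. The difference of 1.68 ± 0.982 points (n = 6) was small but positive in 6 of 6 libraries (exact p = 0.0312, adjusted p = 0.0312), and it was -1.07 points against peaks from 1000 bp up to the limit (exact p = 0.125). The strongest shorter peaks lay further upstream, with 40.2% of their length downstream on average, 13.7 points below the long peaks (exact p = 0.0312, in 6 of 6 libraries).

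**Figure D4:**
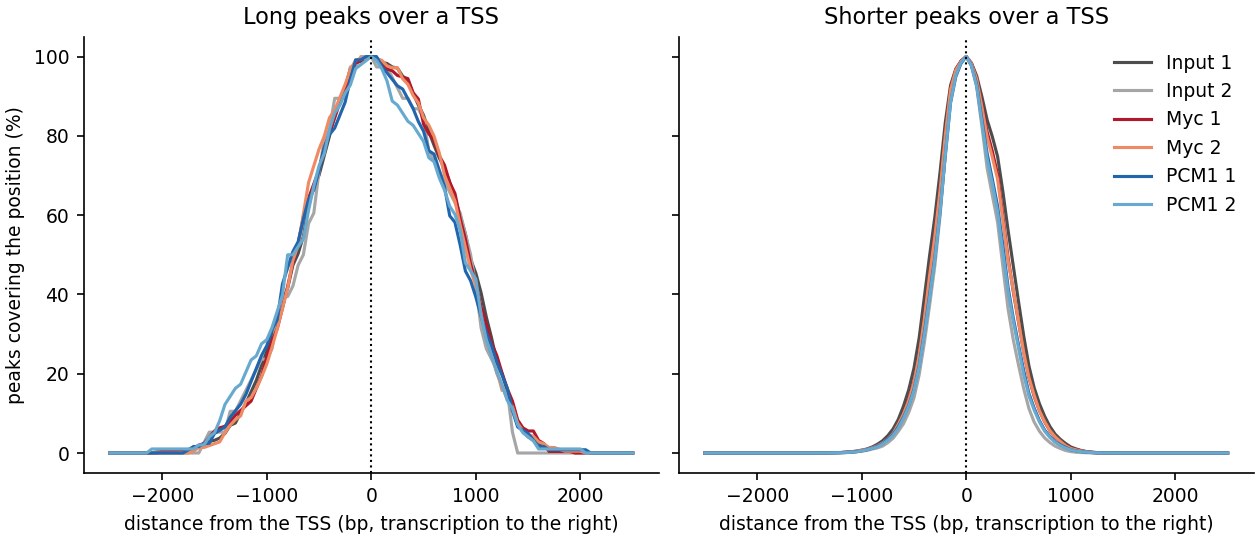
Percentage of peaks over a TSS that cover each position, by distance from the TSS (bp, transcription to the right), for long peaks (left) and shorter peaks (right) of each library. All 6 libraries give nearly the same profile, spread to both sides of the TSS, with 52.0% to 55.2% of the long peaks' length downstream.

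The 18 domains that were long in all 6 libraries, Input 2 with its 48 long peaks among them, included 14 over protein-coding promoters. At Nrip1, a nuclear receptor corepressor (chr16:76372190-76374013), the longest peak measured 1752, 1656, 1757, 1744, 1805 and 1655 bp in Input 1, Input 2, Myc 1, Myc 2, PCM1 1 and PCM1 2. At Nfe2l2, which encodes the oxidative stress regulator NRF2 (chr2:75703376-75705175), the values were 1762, 1703, 1694, 1759, 1668 and 1783 bp in that order. The 6 libraries lay within about 150 bp of each other at both. Others were the promoters of Elf2, Luc7l2, Ube2d3, a ubiquitin-conjugating enzyme, Rev3l, the catalytic subunit of DNA polymerase zeta, Actn1, the non-muscle alpha-actinin, Cpeb2, a regulator of translation, Ppp2r3d and Fbrs. The domains at Pigp and Ttc3, Fbh1 and Ankrd16, and Proser3 and Hspb6 each covered the TSSs of 2 genes that start close together. Hspb6 encodes a small heat shock protein of muscle, and its domain (chr7:30551619-30553463) had the lowest CG ratio of the 14, at 0.558. The Setd5 domain (chr6:113075991-113077646) also contained the TSS of Gt(ROSA)26Sor, the locus that carries the Myc tag in the Myc mice. Its longest peak was 1650 and 1635 bp in the Input libraries, 1582 and 1606 bp in the Myc libraries and 1564 and 1538 bp in the PCM1 libraries, so the tagged hearts lay between the other groups.

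The domain inside Lncppara (chr15:85669674-85671773) was long in all 6 libraries although the nearest protein-coding TSS, that of Ppara, was 63791 bp away. Its longest peak was 2049 and 1996 bp in the Input, 2078 and 2073 bp in the Myc and 2039 and 1889 bp in the PCM1 libraries, and its CG ratio of 0.873 was that of a promoter. Ppara, the nuclear receptor that drives fatty acid oxidation genes, had a separate domain at its own TSS (chr15:85734451-85736082), with 1616, 900, 1609, 938, 1625 and 1611 bp in the order given. That peak was long in 4 libraries and fell short in Input 2 and Myc 2. No annotated TSS lay in the Lncppara domain. Among the 18, TSSs of transcripts not classed as coding, with no coding TSS, lay in the domains at Zswim6 and at 4932412D23Rik inside Zbtb20, a transcriptional repressor gene.

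Listed genes were then searched for domains. Of all 21851 protein-coding genes, 563 (2.58%) had a domain within 1 kb of a TSS. Of 216 annotated genes in 16 lists of heart, pathway and cell type genes, 11 did (5.09%). Genes of energy metabolism gave 3 of 14. They were Ppara, Esrrg, an orphan nuclear receptor for mitochondrial genes (long in Input 1 only), and Slc2a4, the insulin-responsive glucose transporter. The Slc2a4 promoter reached 1904 bp in Input 1 and 1858 bp in PCM1 2 and lay between 668 and 1177 bp in the other 4 libraries. The Hippo and TEAD list gave 2 of 14, the transcription factor Tead1 (long in 4 libraries) and its coactivator Yap1 (long in Input 1 and Myc 1). Chromatin regulators gave, of 14, Ep300, a histone acetyltransferase, and Ezh2, the catalytic subunit of Polycomb complex PRC2 (long in Input 1 only). Hspb6 was 1 of 10 natriuretic peptide and stress genes, and Pbx3, a TALE homeobox factor, 1 of 14 homeobox genes. Egr1, an immediate early zinc finger factor, was 1 of 14 immediate early genes. The adhesion molecule Mcam (long in Myc 2 only) was 1 of 12 smooth muscle and pericyte genes.

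The lists of 16 cardiac transcription factors, 20 sarcomere and Z-disc genes, 14 calcium handling and ion channel genes and 15 genes of the G1/S transition had 0 members with a domain at a TSS, as had the fibroblast, endothelial, epicardial, immune (12 each) and erythroid (11) markers. The share over all protein-coding genes was only 2.58%, so 0 in lists this short does not set their genes apart. Most promoters of the heart genes were not closed. A peak of some length lay within 1 kb of a TSS for 15 to 16 of the cardiac factors and 17 to 20 of the sarcomere genes per library. The same held for 0 to 3 of 12 immune and 4 of 11 erythroid markers. It held for 9 to 12 of 12 fibroblast, 10 to 12 of 12 endothelial, 11 to 12 of 12 smooth muscle and 7 to 11 of 12 epicardial markers. The matching share over all protein-coding genes is not given, so these counts do not set the heart genes apart from other genes.

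Some sarcomere genes had a long domain away from the TSS. Within 10 kb of the gene body, 8 of the 20 (40%) had a domain, beside 803 of the 21851 genes (3.67%). None of the 8 covered the TSS of its gene. 4 lay after the gene end and 4 inside the gene. The median gene span was 24.5 kb for the list and 17.4 kb for all protein-coding genes, and a longer gene offers more room for a domain. The count was 8 with any 1 of the 6 libraries left out. The same wider search found 3 of 14 calcium and ion channel genes, but 2 without Input 1 or without Myc 1, and 4 of 14 energy metabolism genes, but 2 without Input 1.

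Near Myh6, the alpha myosin heavy chain of cardiac thick filaments, the domain (chr14:54937346-54940216) began 1705 bp after the end of the gene and reached into the neighbouring Cmtm5 gene, 849 bp from its TSS. The longest peak was 2789 bp in Input 1, 2491 bp in Input 2, 2823 bp in Myc 1, 2301 bp in Myc 2, 2729 bp in PCM1 1 and 2778 bp in PCM1 2. A single unbroken peak lay there in every library and covered 80.1% to 98.3% of the domain, and no other domain was as long in its shortest library. Tnnt2, cardiac troponin T, had a domain of 3001 bp (chr1:135854723-135857723) from 2463 bp after its end, free of annotated exons. Its longest peak was 2893 and 744 bp in the Input, 370 and 1044 bp in the Myc and 2950 and 1972 bp in the PCM1 libraries. Input 1 and both PCM1 libraries were thus high, and the 2 Myc libraries lay below the 2 PCM1 libraries.

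The domain of Mybpc3, cardiac myosin binding protein C (chr2:91136637-91139592), began 121 bp after the gene and overlapped Madd on the other strand. Its longest peak measured 2946 bp in Input 1 and 2243 bp in PCM1 1, and 842, 680, 948 and 458 bp in Input 2, Myc 1, Myc 2 and PCM1 2. At Actc1, cardiac alpha-actin (chr2:114045439-114047077, 205 bp after the gene), it was 1477, 552, 1639, 1370, 1440 and 1530 bp in the order of libraries used above. Here Myc 1 and PCM1 2 passed the limit and 3 more libraries came within about 130 bp of it.

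Inside Myl2, the ventricular regulatory myosin light chain (chr5:122109032-122111822, 14.2% exonic), the longest peak was 2787, 1843, 1209, 2381, 2701 and 2774 bp in that order, short only in Myc 1. Inside Ldb3, a Z-disc protein (chr14:34567225-34568983), the PCM1 libraries reached 1669 and 1759 bp, while the Input libraries had 1245 and 1026 bp and the Myc libraries 835 and 729 bp. Inside Tpm1, alpha-tropomyosin (chr9:67024732-67026291), Input 1 and PCM1 1 had 1529 and 1549 bp and the other 4 libraries 933 to 1371 bp.

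Over the 8 sarcomere domains, 6 were long in Input 1, 2 in Input 2, 2 in each Myc library, 7 in PCM1 1 and 6 in PCM1 2. The PCM1 libraries thus held more of these than the Myc libraries, although they held fewer long peaks in all. These domains had a low fold over background. The fold of the strongest summit was 2.41 to 6.93 over the 8 domains and 6 libraries, and 6.45 to 17.1 over the 14 TSS domains long in every library, with no overlap of the 2 sets within any library. Fold is a ratio to the background and not a height. In PCM1 1 the number of fragments over the summit was 404 at Myl2, 218 at Myh6 and 70 at Mybpc3, beside a median of 105 for all long peaks. The CG ratios of the 8 domains lay between 0.138 and 0.365.

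**Figure D5:**
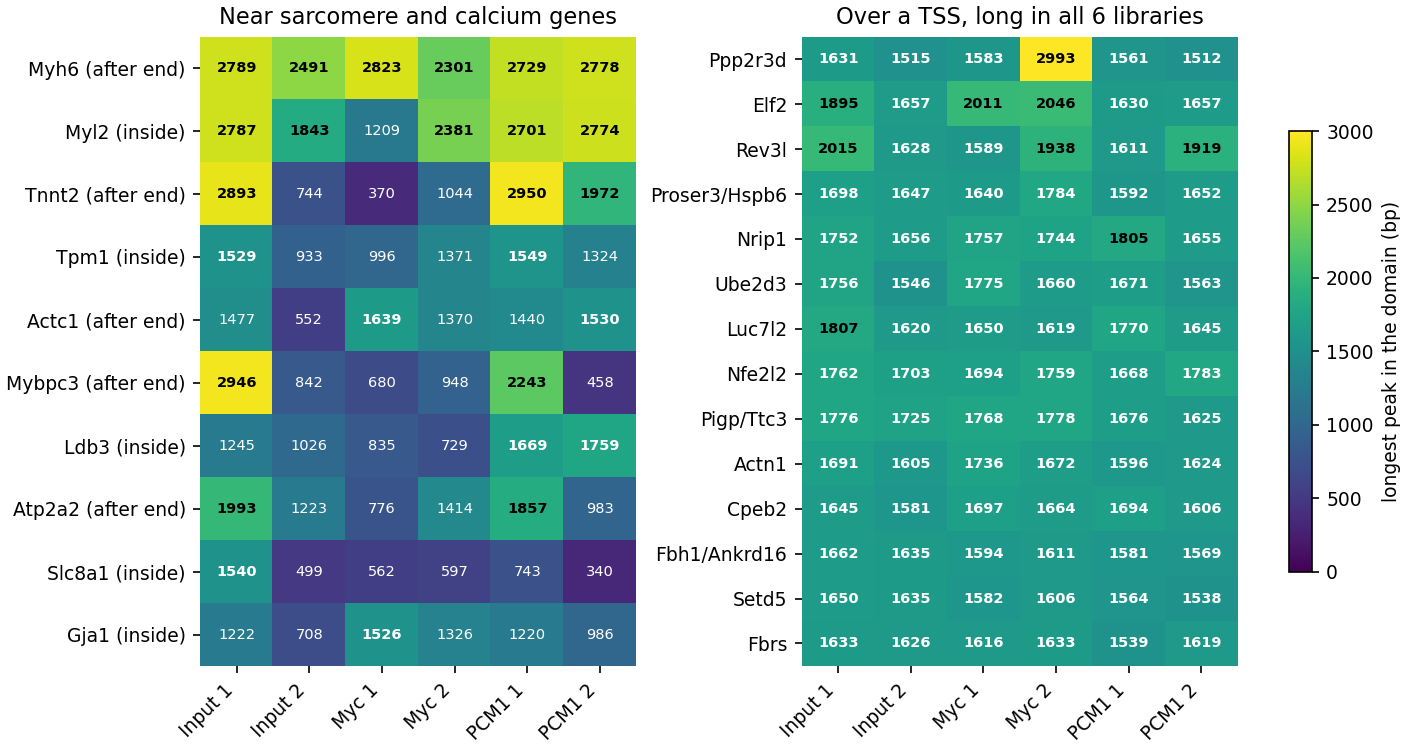
Length (bp) of the longest peak in each library for 10 domains within 10 kb of sarcomere and calcium genes (left) and for the 14 domains over a TSS that were long in all 6 libraries (right), with values of 1500 bp or more in bold. On the left the Myh6 row stays between 2301 and 2823 bp while the Tnnt2 row ranges from 370 to 2950 bp. On the right most values lie between 1512 and 2046 bp, with Ppp2r3d in Myc 2 at 2993 bp.

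Of the 24 domains at gene ends, some further ones are given here that were picked after their values were seen, and most of the 24 follow other genes, such as Podxl, Dbn1 and Otub1. After Atp2a2, the calcium pump SERCA2 of the sarcoplasmic reticulum (chr5:122450606-122452598, 915 bp past the end), the longest peak was 1993 bp in Input 1 and 1857 bp in PCM1 1, and 776 to 1414 bp in the other 4 libraries. After Slc25a4, the mitochondrial ADP/ATP carrier (chr8:46202332-46204934, 1863 bp past the end), Input 1 had 2603 bp, Myc 1 had no peak, and the others had 327 to 797 bp. After Fabp3, the heart fatty acid binding protein, the domain (chr4:130315575-130317121, 112 bp past the end) overlapped the Zcchc17 gene and was 79.8% exonic. There Input 1 had 1547 bp and the others 278 to 716 bp. The Slc25a4 and Fabp3 domains therefore rest on Input 1, the deepest library. After Malat1, a long noncoding RNA abundant in nuclei (chr19:5793159-5795484, 206 bp past the end), the values were 2221, 739, 1251, 1207, 1595 and 1851 bp, long in Input 1 and both PCM1 libraries. The domain after Egfl7, an endothelial gene (chr2:26593861-26596599, 741 bp past the end), overlapped Agpat2 and Gm20532. Its longest peak was 2623 bp in Input 1, 1628 bp in Myc 2 and 1602 bp in PCM1 2, and 1168 to 1330 bp in the other 3 libraries.

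Among all long peaks, 89.4% and 88.4% in the Myc libraries and 79.7% and 76.6% in the PCM1 libraries covered a TSS. 72 domains were long in both Myc libraries and neither PCM1 library. Of these, 65 (90.3%) were over a TSS, close to the share of all long Myc peaks. 18 were long in both PCM1 libraries and neither Myc library, and 9 of them (50%) were over a TSS and 3 at gene ends. Their median CG ratios were 0.849 and 0.616. The 2 counts moved with the libraries used, reaching 173 without Myc 2 and 60 without PCM1 2, because a domain then had to be long in, or absent from, 1 library only. Of the TSS domains, 51.4% and 43.7% were long in the Myc libraries and 25.1% and 20% in the PCM1 libraries, whereas outside TSSs the 4 values were 28.3%, 26.4%, 28.3% and 28.3%. With 2 libraries against 2, no exact test can go below a one-sided p of 0.167, so none was run, and depth differed as well, at 1.60 and 1.59 times that of PCM1 2 in the Myc libraries and 1.08 times in PCM1 1.

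Domains long in both libraries of 1 group and in no other library numbered 19 for Myc, 9 for PCM1 and 1 for Input. For Input it was Ep300 (chr15:81584990-81586708), where 1538 and 1696 bp stood beside 1464 to 1497 bp in the other 4 libraries, a margin of under 50 bp for the lower value. For Myc the longest was at Usf2, a factor that binds E-boxes (chr7:30955733-30957777), with 2038 and 1947 bp beside 978 to 1440 bp. In the Input and PCM1 libraries 2 to 3 peaks still covered 86.2% to 90.2% of this domain, beside 99.7% and 95.2% in Myc. For PCM1 the longest was Kdm2a, a histone demethylase that binds CpG islands (chr19:4396742-4398626), with 1628 and 1701 bp beside 807 to 1078 bp. A wide separation was seen inside Prdm16, a transcriptional regulator (chr4:154541700-154543434, no exon, 93432 bp from a protein-coding TSS). There the PCM1 libraries had 1725 and 1659 bp, and the Input and Myc libraries 328 to 535 bp. In those 4 libraries 2 to 3 separate peaks covered 32.4% to 59.1% of the domain, beside 99.4% and 95.6% under 1 peak in PCM1. The fold of the summit was 10.1 and 10.8 in PCM1 and 8.31 to 13.9 in the other 4, so the groups overlapped in fold. Their separation in longest peak follows from how the domain was chosen.

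The chromosomes carried unequal numbers. Chromosome 19 had 40.7 domains per 100 Mb and chromosome 17 had 37.9, while the X chromosome had 5.26 and the Y chromosome had a single domain. Counted per 10000 peaks, which takes account of how many peaks each chromosome has, the values were 14.5, 14.5 and 8.30 for chromosomes 19, 17 and X, and the remaining autosomes lay between 7.58 and 12.4. The Y chromosome had the highest value by this count, 101, which rests on its single domain. Only 2 domains, at Hist1h4j and Zmym2, had a copy elsewhere in the genome of at least 95% identity over 500 bp.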

How the data were processed

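Omni-ATAC-Seq was measured in 6 libraries. Per the labels, the authors' tools included Bowtie2 2.3.3.1, Picard 2.2.1 and MACS2 2.1.0.20160309 on mm10, and peaks were called per library at q 0.05. The deposited narrowPeak files hold start and end, a score (10 times the -log10 q, at most 1000), the summit's fold enrichment (a ratio over background) and its -log10 p- and q-values, as the authors' caller wrote them. No read counts were used, and depth was inferred by solving pileup and background from fold and p. Pileups came out whole within 0.02 for over 99.9% of peaks.

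Peaks of 1500 bp or more were merged over libraries with the rule of bedtools (version 2.31.1). Protein-coding TSSs came from GENCODE M21 (basic), sequence from GRCm38.p6, and copies were sought with blastn 2.17.0. A domain was named by the gene whose TSS it covers, the gene it lies in or follows, or the nearest TSS. Named domains are the 10 longest, the 10 long in most libraries, the 3 longest of each group alone, up to 4 per gene list, and the 3 longest over 10 kb from a TSS. Those beside Actc1, Atp2a2, Slc25a4, Fabp3, Malat1, Egfl7, Tpm1 and Lncppara and the domains within 10 kb of listed genes follow the wider search or were picked after their values were seen. 1 domain counted here is not reported by name. Members, lists and location classes were chosen with earlier results of these data known. Long and shorter peaks of the same library were compared with an exact sign-flip permutation test over 6 libraries in Python 3.11.15, tested on simulated data. Per the labels, the 2 libraries of a group are independent biological replicates.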

Additional observations from a re-analysis of the deposited data

How the results depend on the processing

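No paired analysis was possible because no test between groups was run, and the comparison of long with shorter peaks is already within each library. The study took input nuclei as an aliquot of cushion nuclei before MAN-IP, so some libraries may share a preparation, and the sign-flip test treats all 6 as independent. With a limit 250 bp lower there were 5027 long peaks, 2000 domains, 252 domains of Myc without PCM1 and 38 of PCM1 without Myc, and 34 listed genes with a domain at a TSS. With 2000 bp these were 70, 36, 1, 1 and 0, and the differences from shorter peaks were 34.7 points for promoters (p = 0.0938), 11.2 points for GC content (p = 0.0625) and 0.290 for the CG ratio (p = 0.0625, all exact permutation tests). The downstream share could not be computed at that limit because Input 2 then has no long peak over a TSS. Within 10 kb of the gene, 26 listed genes had a domain in place of 11.

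Against peaks from 1000 bp up to the limit, the promoter difference was -0.881 points, that of the downstream share -1.07 points, that of GC content 1.28 points and that of the CG ratio 0.0314. Against the strongest shorter peaks, the promoter difference was -9.14 points. A q limit of 0.01, lists cut to the same number of peaks, a TSS reach of 200 bp, TSSs of all genes, whole peaks and a merge gap of 1 kb kept each result they were applied to on its side of the threshold.

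With 1 library left out, the promoter difference was 62.4 to 65.9 points, GC content 15.1 to 15.9 points, the CG ratio 0.476 to 0.501 and the downstream share 1.36 to 1.94 points, all with exact p = 0.0625, the smallest that 5 libraries allow. Domains numbered 450 to 593, Myc without PCM1 72 to 173 and PCM1 without Myc 18 to 60. Listed genes numbered 9 to 11, and sarcomere genes within 10 kb stayed at 8.

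Depth differed 4.38-fold between the deepest and the shallowest library, and its part in the counts of long peaks was not tested.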
